A study of Mus musculus with 36 samples.

Results

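Serotonin signalling was examined through 8 genes: Tph2, which makes the neurotransmitter in neurons, Slc6a4, which takes it back up, and the receptor genes Htr1a, Htr1b, Htr2a, Htr2c, Htr4 and Htr7. Members were the probe sets that the array platform's annotation pairs with exactly 1 of these symbols. They numbered 12 of the 45037 probe sets that were not controls, and they covered 7 of the 8 genes. No probe set was annotated to Htr2a, so that receptor has no value here. Htr1a, Htr1b, Htr2c, Htr4 and Htr7 had 2 probe sets each, and Slc6a4 and Tph2 had 1 each.

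The arrays came from male C57B1/6J mice of 20 to 26 g trained for conditioned place preference, where injections are paired with the compartments of a box and the mouse later chooses between them. Modafinil is a wake-promoting drug that blocks the dopamine transporter. Training ran from day 3 to day 10. Modafinil mice were injected with 65 mg/kg on every other day and with saline in between, and vehicle mice received only saline. All brains were taken after the preference test on day 11, 24 h after the last drug-day dose, and the age of the mice is not in the labels. Punches of 1 mm from 100 µm slices gave the ventral tegmental area (VTA, the midbrain region that holds dopamine neurons), the nucleus accumbens (NAC, ventral striatum) and the prefrontal cortex (PFC). Modafinil and vehicle had 5 arrays each for VTA, 5 each for NAC and 8 each for PFC. The labels number the arrays within a group but do not say that each came from a separate mouse. The p-values therefore measure the spread between these arrays.

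Serotonin neurons have their cell bodies in the raphe nuclei of the brainstem and send axons to all 3 regions. Messenger RNA for synthesis and uptake is made mainly in those cell bodies, whereas receptor messenger RNA is made by the cells that respond. Htr1a and Htr1b encode receptors coupled to inhibitory Gi/o proteins, Htr2c encodes a receptor coupled to Gq proteins, and Htr4 and Htr7 encode receptors coupled to stimulatory Gs proteins.

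All values are robust multi-array average (RMA) values on the log2 scale, in which a difference of 1 is a 2-fold difference. The number of arrays limits their precision. PFC values were on another scale: the median over all probe sets was 7.24 in PFC arrays, 6.85 in NAC arrays and 6.78 in VTA arrays. PFC levels were therefore set beside those of other regions by the percentile of a probe set within its own array or after quantile normalization of all arrays, with no test. Levels of different probe sets were not compared with each other on the log2 scale. Several single arrays stood apart for 1 or a few of the values given here. Modafinil PFC array 3 did so for both Htr2c probe sets and for marker lists. In it the mean of 10 markers of striatal projection neurons was 10.85, and the other 7 modafinil PFC arrays lay between 8.92 and 9.27. Its mean of 12 dopamine neuron markers was 6.71, the highest of the 8 modafinil PFC arrays, and vehicle PFC array 4 read higher at 6.78.

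**Figure D1:**
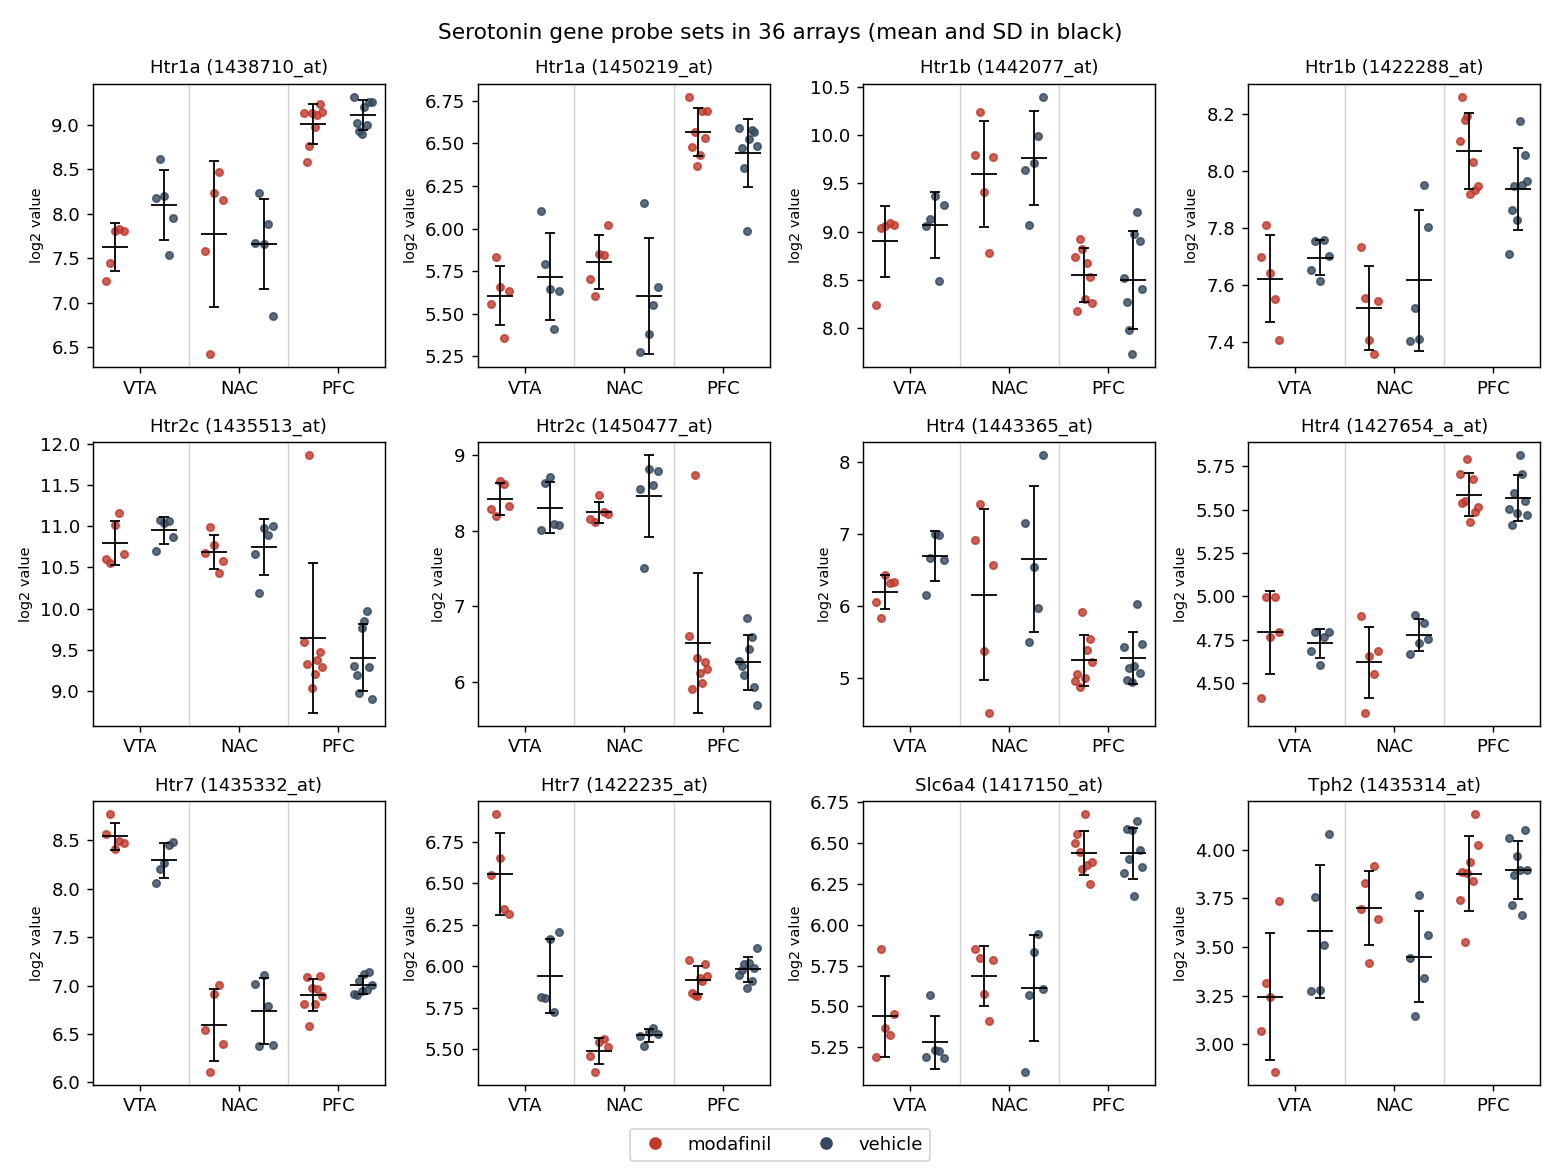
RMA log2 value (vertical axis) of each serotonin gene probe set in all 36 arrays, by region and treatment (modafinil red, vehicle dark blue). Points are arrays, and black marks are group means with SD (n = 5 for VTA and NAC groups, 8 for PFC groups). Htr7 1422235_at shows separate modafinil and vehicle points in VTA, and modafinil PFC array 3 lies above the rest for both Htr2c probe sets (11.87 and 8.73).

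The synthesis gene and the transporter gene were dim in all 3 regions. Tph2 (1435314_at), the neuronal tryptophan hydroxylase, averaged the 6.6th percentile of its array in vehicle PFC, the 7.09th in vehicle NAC and the 8.28th in vehicle VTA. In VTA its values were 3.07, 3.31, 3.24, 2.86 and 3.74 in modafinil arrays, against 3.28, 3.76, 3.28, 3.51 and 4.08 in vehicle arrays. The groups overlapped, and the difference of -0.34 (SE 0.18) had an adjusted p of 0.365.

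In NAC the Tph2 difference was 0.25 (SE 0.12, adjusted p = 1) and in PFC it was -0.02 (SE 0.08, adjusted p = 0.941). The modafinil difference in VTA minus that in NAC was -0.59 (SE 0.20). Its unadjusted p was 0.0062 and its adjusted p was 0.267, so it did not pass the threshold of 0.05.

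Slc6a4 (1417150_at), the serotonin transporter, averaged the 37.2nd percentile in vehicle PFC, the 29.9th in vehicle NAC and the 26.2nd in vehicle VTA, and neighbouring regions overlapped. In vehicle arrays it read 5.10, 5.57, 5.83, 5.94 and 5.60 in NAC, against 5.19, 5.57, 5.23, 5.22 and 5.19 in VTA. The difference of 0.33 (SE 0.13) had an adjusted p of 0.0307 in the fit without a filter on dim probe sets. The call was lost in 8 of 16 alternatives. They included quantile normalization of all arrays (0.22, adjusted p = 0.13) and the fit of the 10 NAC and VTA vehicle arrays alone (adjusted p = 0.0633).

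Modafinil differences of Slc6a4 were 0.16 (SE 0.12) in VTA, 0.07 (SE 0.14) in NAC and 0.0017 (SE 0.07) in PFC. Their adjusted p-values were 0.518, 1 and 0.995.

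Of the raphe marker genes fixed for comparison that are not members, Gata3 and Maob had a probe set. Gata3, a transcription factor of serotonin neurons and other neurons, read 3.73, 5.06, 4.90, 4.69 and 5.56 in modafinil VTA, against 6.70, 8.79, 4.81, 4.60 and 5.38 in vehicle VTA, and averaged between 3.19 and 3.36 in the NAC and PFC groups. Its VTA difference of -1.27 rested on vehicle arrays 1 and 2: it was -0.59 without array 2 and -0.15 without both, settings chosen after the values were seen. Maob averaged 9.48 in modafinil VTA and 9.45 in vehicle VTA, a difference of 0.02. Whether the punches of VTA held part of a neighbouring nucleus was not tested.

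In vehicle arrays NAC was compared with VTA by limma, in a fit of all 18 vehicle arrays. Of the 12 member probe sets 6 passed the filter, which kept probe sets whose mean over the arrays lay at or above the 40th percentile. Of these 6, 2 passed the threshold, Htr7 1435332_at lower and Htr1b 1442077_at higher in NAC. Over all 27022 probe sets tested 59 percent passed it, so a call in this comparison was common. An unadjusted p under 0.05 was found for 3 of the 6, against 63.4 percent of all. Without the filter 4 of the 12 were called, against 56.8 percent of all 45037 probe sets. In punches of tissue, fewer cells of a type and less messenger RNA per cell cannot be told apart.

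Promoter windows are printed for Htr7 and Htr2c, each with 1 region apart from the others by both probe sets, and for Htr1b, called between NAC and VTA by 1 of its 2 probe sets. They are the 250 bases before each gene's start in RefSeq (GRCm38.p6), 5′ to 3′ on the gene's strand. They lie at chr19:36057361-36057610 (minus strand) for Htr7, chr9:81633833-81634082 (minus strand) for Htr1b and chrX:146962263-146962512 (plus strand) for Htr2c. Capitals mark matches to CCAAT on either strand, here all read as ATTGG.
Htr7: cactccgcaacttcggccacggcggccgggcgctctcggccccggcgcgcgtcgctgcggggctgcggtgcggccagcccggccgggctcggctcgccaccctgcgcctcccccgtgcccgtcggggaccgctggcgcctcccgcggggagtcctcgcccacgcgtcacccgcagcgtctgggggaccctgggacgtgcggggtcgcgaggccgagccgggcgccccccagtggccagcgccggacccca
Htr1b: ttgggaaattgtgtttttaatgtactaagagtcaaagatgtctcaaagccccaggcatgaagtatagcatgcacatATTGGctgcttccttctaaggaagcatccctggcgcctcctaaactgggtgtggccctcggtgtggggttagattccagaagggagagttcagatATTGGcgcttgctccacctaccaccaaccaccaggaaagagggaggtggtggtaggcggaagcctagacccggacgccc
Htr2c: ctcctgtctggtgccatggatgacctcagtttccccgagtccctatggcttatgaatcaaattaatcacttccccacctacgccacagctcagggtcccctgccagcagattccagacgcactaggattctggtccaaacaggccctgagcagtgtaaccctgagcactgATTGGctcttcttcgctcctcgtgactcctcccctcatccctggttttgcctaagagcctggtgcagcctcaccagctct

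The Htr7 window was 82 percent G or C, a share that 99.4 percent of 32851 mouse promoter windows did not exceed. The Htr1b window was at 52.4 percent and the Htr2c window at 55.6 percent, and the median of all windows was 52.4 percent. CCAAT was found 2 times in the Htr1b window, 1 time in that of Htr2c and not in that of Htr7, and 33.8 percent of all windows held it. A search of both strands for the GC box (GGGCGG) found no match in any of the 3 windows, and 32.7 percent of all windows held it. The cyclic AMP response element (TGACGTCA) was likewise not found, against 1.55 percent of all windows. Nor was a TATA box (TATAAA) found, against 12.4 percent of all, or an E-box (CACGTG), against 6.02 percent. None of the motifs overlaps another.

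Htr1a (1438710_at), an autoreceptor of serotonin neurons and an inhibitory receptor on cortical cells, stood at the 74.8th percentile in vehicle PFC, the 61.7th in vehicle NAC and the 68.2nd in vehicle VTA. Neighbours in this order of PFC, VTA and NAC overlapped. On the log2 scale vehicle NAC read 7.67, 8.24, 7.66, 7.89 and 6.85, against 8.18, 8.62, 8.20, 7.53 and 7.95 in vehicle VTA, a difference of -0.44 (SE 0.20, adjusted p = 0.0677). The dimmer probe set 1450219_at gave the same order, and its difference was -0.11 (SE 0.15, adjusted p = 0.534).

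Htr1b (1442077_at), a receptor on axon terminals, was higher in NAC than in VTA. Its values were 9.64, 9.07, 9.71, 9.99 and 10.40 in vehicle NAC, against 9.06, 9.13, 9.37, 8.49 and 9.27 in vehicle VTA. All 5 NAC arrays lay above the VTA mean, although the groups overlapped, and the difference was 0.70 (SE 0.26, adjusted p = 0.0276). The call was lost without vehicle NAC array 4 (adjusted p = 0.062), vehicle NAC array 5 (0.0865) or vehicle VTA array 4 (0.0814).

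Vehicle PFC held Htr1b 1442077_at at the 67.3rd percentile, vehicle NAC at the 91.8th and vehicle VTA at the 82.5th. The second Htr1b probe set, 1422288_at, did not share this pattern. It stood at the 60.2nd percentile in vehicle PFC, the 61.2nd in vehicle NAC and the 62.9th in vehicle VTA. Its NAC minus VTA difference was -0.08 (SE 0.10, adjusted p = 0.508). Over all 36 arrays the 2 probe sets correlated with r = 0.176.

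Htr2c, a receptor also made in large amounts by the choroid plexus, stood lower in PFC than in the other regions. Its probe set 1435513_at lay between the 71.9th and the 91.2nd percentile in the 8 vehicle PFC arrays. It lay between the 95.2nd and the 97.6th in vehicle NAC and between the 96.9th and the 97.8th in vehicle VTA. PFC was thus apart from both other regions, which overlapped each other.

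Probe set 1450477_at gave the same separation, with 24.7 to 43.7 in vehicle PFC, 59.7 to 76.7 in vehicle NAC and 67 to 75.6 in vehicle VTA. After quantile normalization of all arrays together, PFC minus NAC was -1.92 and -2.60 for the 2 probe sets, and PFC minus VTA was -2.06 and -2.48. NAC and VTA differed by -0.20 (SE 0.19, adjusted p = 0.375) and 0.15 (SE 0.23, adjusted p = 0.597). The mean of 9 choroid plexus markers lay between 5.40 and 5.65 in vehicle PFC, 5.12 and 5.24 in vehicle NAC and 5.52 and 6.67 in vehicle VTA. In vehicle VTA the 6.67 was that of array 4, and the next highest was 5.69. Among the 9 markers Otx2 averaged 8.04 in vehicle VTA and 3.58 in vehicle NAC. Ttr, the defining gene of that tissue, averaged 6.60 in vehicle PFC, 6.14 in vehicle NAC and 6.34 in vehicle VTA. The PFC values of these markers are on another scale and are not ranked against those of the other regions.

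The 2 probe sets of Htr4 did not give the same order. By 1443365_at vehicle VTA (48.4th percentile) stood above vehicle NAC (46.2nd) and vehicle PFC (18.7th), and neighbours overlapped. By 1427654_a_at vehicle PFC (22.5th) stood apart from and above vehicle VTA (18.2nd) and vehicle NAC (17.2nd). The correlation between them over 36 arrays was -0.629, so a regional order of Htr4 is not given. NAC minus VTA was -0.04 (SE 0.34) and 0.05 (SE 0.07), with adjusted p-values of 0.935 and 0.587.

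Htr7 was the member with the largest difference between NAC and VTA. Probe set 1435332_at read 7.02, 6.38, 7.11, 6.79 and 6.39 in vehicle NAC, against 8.06, 8.21, 8.26, 8.46 and 8.48 in vehicle VTA. The groups did not overlap, which held for 41.4 percent of all probe sets tested, and the difference was -1.55 (SE 0.12, adjusted p = 2.21e-09). Probe set 1422235_at differed by -0.36 (SE 0.08, adjusted p = 0.000847) in the fit without the filter, again with groups apart.

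By percentile, 1435332_at stood at 46.5 in vehicle PFC, 48 in vehicle NAC and 70.9 in vehicle VTA, and 1422235_at at 29.4, 29.3 and 36.7. For both, VTA was apart from and above the other regions, which overlapped. Thalamic neuron markers (6 genes) averaged 7.20 to 7.86 in vehicle NAC and 9.49 to 10.1 in vehicle VTA. Their part in the Htr7 difference was not tested.

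**Figure D2:**
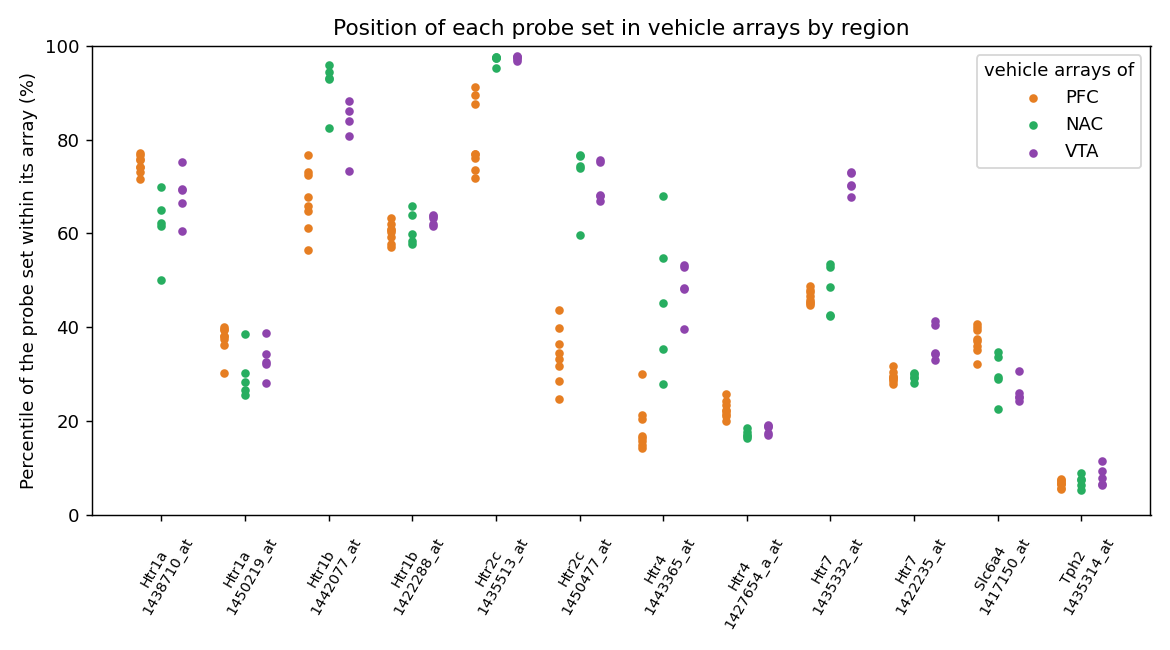
Percentile of each probe set within its own array (vertical axis, 0 to 100 percent) in vehicle arrays of PFC (orange, n = 8), NAC (green, n = 5) and VTA (purple, n = 5). Each point is 1 array. Htr2c is lower in PFC than in NAC and VTA for both probe sets, Htr7 is highest in VTA for both, and Tph2 lies below the 12th percentile in every array.

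Modafinil was then compared with vehicle within each region. No member passed the threshold in any region. In VTA 8 member probe sets passed the filter and 0 were called, where 0.259 percent of 27022 probe sets were called. An unadjusted p under 0.05 was found for 4 of the 8 and for 21.1 percent of all probe sets tested. These 4 included both Htr7 probe sets, of which 1422235_at passed the filter through its modafinil arrays. Treatment groups were apart in VTA only for Htr7 1422235_at among the 8, and for 5.74 percent of all. In NAC 7 of them passed the filter and 0 were called, and 0 percent of all probe sets were called. There 0 of the 7 and 3.23 percent of all probe sets had an unadjusted p under 0.05, and the treatment groups did not overlap for 0 of the 7 and for 0.477 percent of all. In PFC 5 passed the filter and 0 were called, against 0.0518 percent of all. An unadjusted p under 0.05 was found there for 0 of the 5 and for 11.8 percent of all, and groups apart for 0 of the 5 and for 0.104 percent of all. Across the 3 regions together 6 passed the filter and 0 were called, against 0.84 percent of all, with differences between -0.29 and 0.11.

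**Figure D3:**
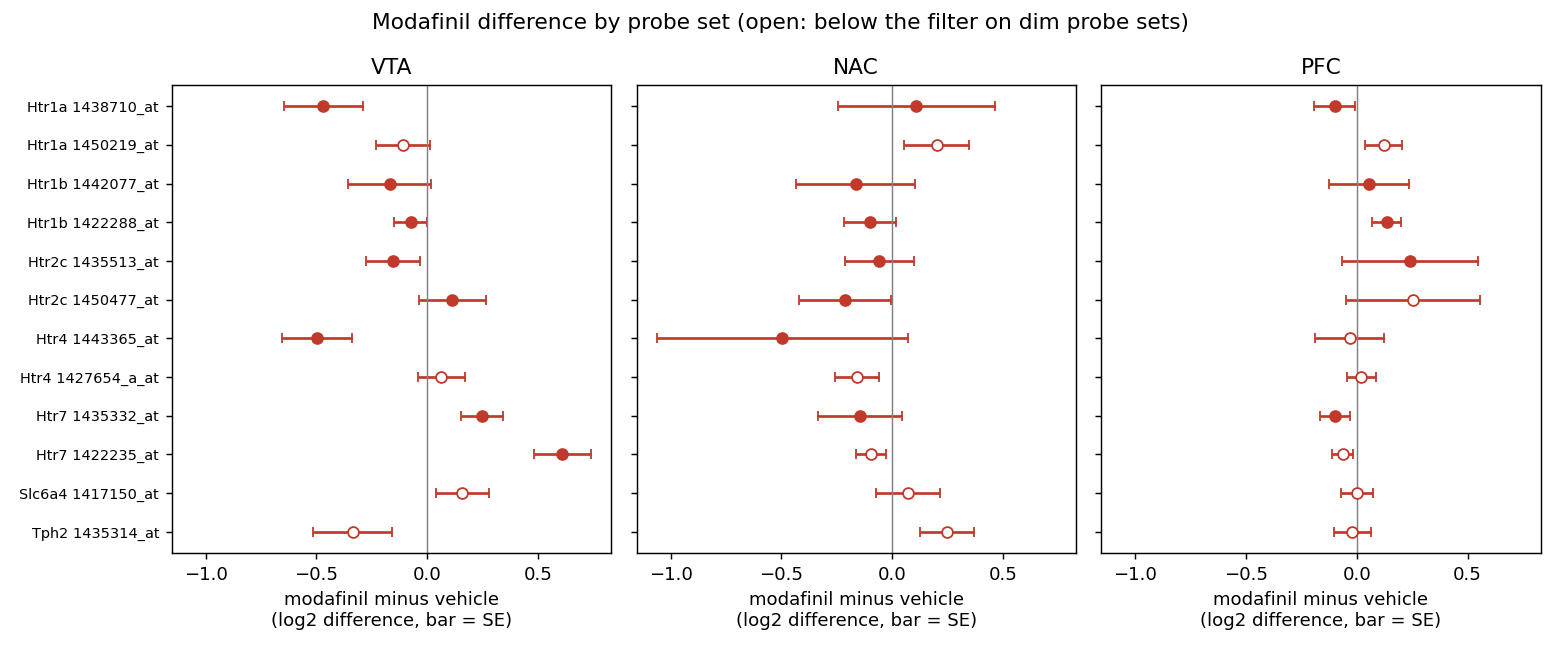
Modafinil minus vehicle (horizontal axis, log2 difference, bars are the SE from limma) for each probe set in VTA, NAC and PFC. Filled points passed the filter on dim probe sets and open points did not. Htr7 1422235_at in VTA (0.61) is the point farthest above 0, and Htr4 1443365_at is at -0.50 in both VTA and NAC with a wider bar in NAC.

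In VTA the Htr7 probe sets had higher values with modafinil. Probe set 1422235_at read 6.55, 6.92, 6.65, 6.34 and 6.31 in modafinil arrays, against 5.82, 5.81, 6.16, 5.72 and 6.21 in vehicle arrays. Every modafinil array lay above every vehicle array, a separation that 5.74 percent of all probe sets tested showed. The difference was 0.61 (SE 0.13), and its adjusted p of 0.0555 missed the threshold. The probe set stood at the 46.5th percentile in modafinil VTA and the 36.7th in vehicle VTA, so it passed the filter at the 40th through its modafinil arrays, and in the fit without the filter its adjusted p was 0.0891. The exact two-sided permutation p was 0.00794, the smallest that 5 against 5 arrays can give.

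Probe set 1435332_at read 8.56, 8.77, 8.41, 8.49 and 8.47 in modafinil VTA, against 8.06, 8.21, 8.26, 8.46 and 8.48 in vehicle VTA. All 5 modafinil arrays lay above the vehicle mean, but the groups overlapped. The difference was 0.25 (SE 0.09, adjusted p = 0.173, exact permutation p = 0.0476).

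Htr7 did not have higher values with modafinil in the other regions. For 1422235_at the NAC values were 5.46, 5.36, 5.54, 5.56 and 5.51 in modafinil arrays, against 5.58, 5.52, 5.60, 5.63 and 5.59 in vehicle arrays. The difference was -0.09 (SE 0.07, adjusted p = 1, exact permutation p = 0.0317). All 5 modafinil NAC arrays lay below the vehicle mean, and the groups overlapped. In PFC the values of 1422235_at ran from 5.82 to 6.04 with a median of 5.92 in modafinil arrays and from 5.87 to 6.11 with a median of 5.98 in vehicle arrays. The PFC difference was -0.06 (SE 0.05, adjusted p = 0.609, exact permutation p = 0.123). For 1435332_at the differences were -0.14 (SE 0.19, adjusted p = 1) in NAC and -0.10 (SE 0.07, adjusted p = 0.55) in PFC.

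The difference between regions was tested by itself, as a contrast of 6 group means over 36 arrays. The 1422235_at change in VTA exceeded that in NAC by 0.71 (SE 0.12, adjusted p = 0.00572) and that in PFC by 0.68 (SE 0.11, adjusted p = 0.00113). Both values come from the fit without the filter, because this probe set lay below the filter over all 36 arrays. In that fit 0.213 percent of probe sets were called for VTA minus NAC and 0.586 percent for VTA minus PFC, and 1 of the 12 members in each. With the filter, 6 members were tested in each, and 0 were called against 0.274 and 0.903 percent of all probe sets. The contrast assumes 1 spread for all groups, and the SDs were 0.246 and 0.223 in modafinil and vehicle VTA against 0.0412 to 0.0839 in the 4 other groups.

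Probe set 1435332_at gave 0.39 (SE 0.19, adjusted p = 0.438) against NAC and 0.35 (SE 0.17, adjusted p = 0.416) against PFC. No member differed in its modafinil change between NAC and PFC, with 0 called with and without the filter, where 0 percent of all probe sets were called.

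Marker lists of cell types were read in the same VTA arrays. The mean of the 6 thalamic neuron markers lay between 10.31 and 10.88 in modafinil VTA arrays and between 9.49 and 10.1 in vehicle VTA arrays, without overlap. Among these 6 genes 5 had higher values with modafinil and 0 passed the threshold, with a median difference of 0.54 against -0.05 over all probe sets tested. Prkcd, a kinase of thalamic relay neurons, gave 2.16 (SE 0.43, adjusted p = 0.0523). The mean of the 12 dopamine neuron markers lay between 7.29 and 8.75 in modafinil VTA and between 8.28 and 9.86 in vehicle VTA. All 11 tested dopamine markers had lower values with modafinil and 0 passed the threshold, with a median of -0.90. Of the 12, En1 had low values, with means of 3.07 in modafinil and 4.41 in vehicle VTA, and Pitx3 had means of 6.23 and 6.34. When the modafinil change itself was compared between regions, 2 of 6 thalamic markers were called higher and 3 of 8 tested dopamine markers lower in VTA minus PFC, against 0.903 percent of all probe sets, and 1 of 6 and 0 of 8 in VTA minus NAC, against 0.274 percent.

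Within the treatment groups of VTA, after each group's mean was taken off, Htr7 1422235_at correlated with the thalamic marker mean with r = 0.186 and rho = 0.176 over 10 arrays (permutation p = 0.596 and 0.632). Without the 2 arrays farthest from the median r was -0.0706. Htr7 1435332_at gave r = 0.509 and rho = 0.467 (permutation p = 0.136 and 0.178), and 0.432 without the 2 farthest. These are among 30 such relations of member probe sets with marker means in VTA and NAC, and p-values adjusted over the 30 were 0.639, 0.816, 0.24 and 0.356. With the dopamine marker mean, Htr7 1435332_at gave r = -0.65 (adjusted permutation p = 0.118) and rho = -0.77 (adjusted permutation p = 0.0433). Without the 2 farthest arrays r was -0.464, and it was -0.243 within modafinil arrays and -0.945 within vehicle arrays. Htr7 1422235_at gave r = -0.235 (adjusted permutation p = 0.586) and rho = -0.139 (adjusted permutation p = 0.816) with the dopamine marker mean, and r = 0.333 without the 2 farthest. The part of tissue makeup in the difference between the treatment groups was not tested beyond these values.

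**Figure D4:**
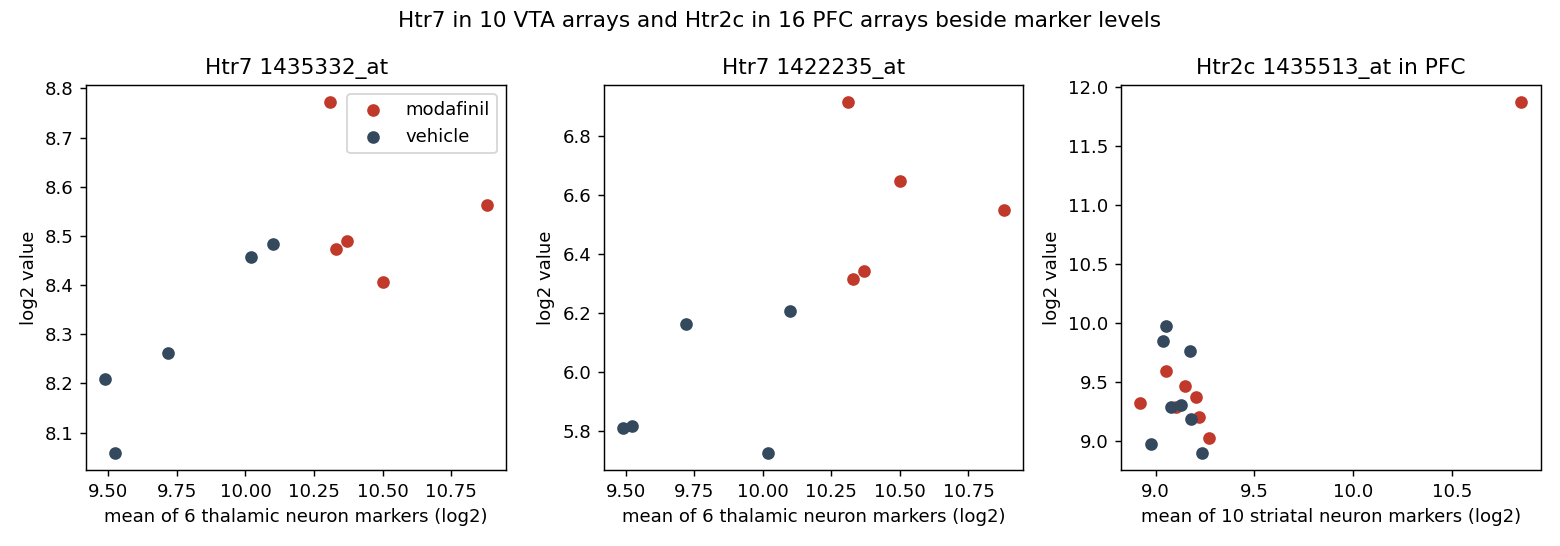
RMA log2 value of a probe set (vertical axis) against the mean log2 value of a marker list in the same array (horizontal axis), modafinil red and vehicle dark blue. Left and middle are Htr7 1435332_at and 1422235_at against 6 thalamic markers in 10 VTA arrays. Right is Htr2c 1435513_at against 10 striatal markers in 16 PFC arrays, where modafinil array 3 lies alone at 10.85 and 11.87.

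Htr4 and Htr1a had lower values with modafinil in VTA, and neither passed the threshold. Htr4 1443365_at read 6.06, 5.84, 6.43, 6.33 and 6.33 in modafinil VTA, against 6.16, 6.67, 7.01, 6.99 and 6.65 in vehicle VTA. All 5 modafinil arrays lay below the vehicle mean and the groups overlapped, with a difference of -0.50 (SE 0.16, adjusted p = 0.126, exact permutation p = 0.0317). The second Htr4 probe set gave 0.06 (SE 0.10, adjusted p = 0.783). Within the groups Htr4 1443365_at correlated with the dopamine marker mean with r = -0.367 and with the thalamic one with r = 0.255 (adjusted permutation p = 0.442 and 0.575).

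Htr1a 1438710_at read 7.24, 7.45, 7.81, 7.83 and 7.81 in modafinil VTA, against 8.18, 8.62, 8.20, 7.53 and 7.95 in vehicle VTA. All 5 modafinil arrays lay below the vehicle mean, and only vehicle array 4 lay among them. The difference was -0.47 (SE 0.18, adjusted p = 0.172, exact permutation p = 0.0556). Within the groups it correlated with the thalamic marker mean with r = -0.751 (permutation p = 0.0123, adjusted 0.041) and with rho = -0.576 (adjusted 0.204), and r was -0.737 without the 2 farthest arrays. With the dopamine marker mean it gave r = 0.596 and rho = 0.636 (adjusted permutation p = 0.155 and 0.147), and r = 0.855 without the 2 farthest. The remaining VTA differences were -0.17 and -0.07 for the Htr1b probe sets, -0.15 and 0.11 for those of Htr2c and -0.11 for Htr1a 1450219_at, with adjusted p-values between 0.484 and 0.679.

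In NAC some member probe sets varied widely between arrays of 1 group and others did not. The SD in modafinil and vehicle NAC was 1.19 and 1.01 for Htr4 1443365_at, against 0.0792 and 0.0411 for Htr7 1422235_at. Htr4 1443365_at read 6.92, 7.42, 5.38, 4.52 and 6.58 in modafinil NAC, against 7.16, 5.51, 6.55, 5.97 and 8.10 in vehicle NAC. The groups overlapped, with the lowest value in a modafinil array and the highest in a vehicle array, and the difference of -0.50 (SE 0.57) had an adjusted p of 1. Htr1a 1438710_at read 7.58, 6.42, 8.23, 8.47 and 8.15 in modafinil NAC, against 7.67, 8.24, 7.66, 7.89 and 6.85 in vehicle NAC, a difference of 0.11 (SE 0.35, adjusted p = 1).

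Htr1b 1442077_at read 9.79, 10.24, 9.41, 8.78 and 9.77 in modafinil NAC, against 9.64, 9.07, 9.71, 9.99 and 10.40 in vehicle NAC. The groups overlapped, and the difference was -0.16 (SE 0.27, adjusted p = 1). Both Htr2c probe sets also overlapped between treatments, with differences of -0.06 (SE 0.15) and -0.21 (SE 0.21).

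For several member probe sets, though not all, the spread between NAC arrays went along with markers of cell types, a relation chosen after the values were seen. Htr1b 1442077_at correlated with the mean of 10 striatal projection neuron markers over the 10 NAC arrays with r = 0.972 and rho = 0.988 after each group's mean was taken off. Both permutation p-values were 1e-05, the smallest that 100000 permutations can give, and 3e-04 after adjustment over the 30 relations. Without the 2 arrays farthest from the median r was 0.939, and it was 0.986 within modafinil arrays and 0.955 within vehicle arrays.

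Htr1a 1438710_at went the other way along this axis. It correlated with the mean of 9 cortical excitatory neuron markers with r = 0.977 and rho = 0.952 (adjusted permutation p = 0.00045 and 0.0015), and with the striatal marker mean with r = -0.816 (adjusted p = 0.0222). Without the 2 farthest arrays these were 0.872 and -0.756. Modafinil NAC array 2 had the lowest cortical marker mean of its group, 7.25, and the lowest Htr1a value, 6.42.

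Htr4 1443365_at followed the striatal marker mean with r = 0.83 and rho = 0.879 (adjusted permutation p = 0.0222 and 0.0124), and 0.631 without the 2 farthest. Htr2c 1435513_at did so with r = 0.788 and rho = 0.77 (adjusted p = 0.0257 and 0.0433), and 0.591 without the 2 farthest. The second probe sets of Htr1b and Htr2c gave r = 0.669 (adjusted p = 0.113) and 0.368 (adjusted p = 0.445). Htr7 1435332_at gave r = -0.551 with the striatal marker mean (adjusted permutation p = 0.204) and 0.472 with the cortical one (adjusted permutation p = 0.298). Without the 2 farthest arrays these were -0.854 and -0.418. Both measures of a pair come from the same array, so they share its RNA and its processing. The striatal marker mean itself lay between 10.53 and 11.87 in modafinil NAC and between 10.88 and 11.93 in vehicle NAC.

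**Figure D5:**
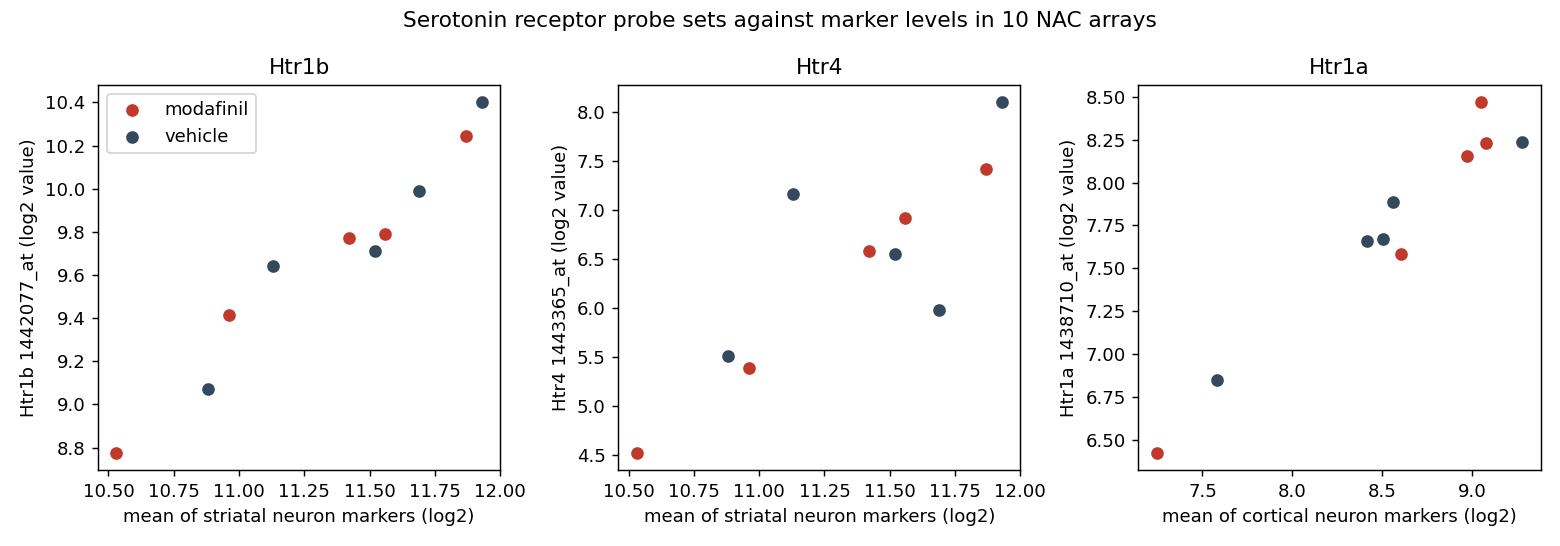
RMA log2 value of Htr1b, Htr4 and Htr1a probe sets (vertical axes) against the mean log2 value of striatal (left, middle) or cortical (right) neuron markers in the same array (horizontal axes), in 5 modafinil (red) and 5 vehicle (dark blue) NAC arrays. Values rise with the marker mean in each panel, with group-centred r of 0.972, 0.83 and 0.977. The Htr4 points scatter more, with r of 0.997 within modafinil arrays and 0.589 within vehicle arrays.

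In PFC the Htr2c values rested on 1 array. Probe set 1435513_at ran from 9.03 to 11.87 with a median of 9.35 in modafinil arrays and from 8.90 to 9.97 with a median of 9.29 in vehicle arrays. Its difference was 0.24 (SE 0.31, adjusted p = 0.758), and it was -0.08 without modafinil array 3. Probe set 1450477_at ran from 5.91 to 8.73 (median 6.22) in modafinil arrays and from 5.69 to 6.84 (median 6.25) in vehicle arrays. Its difference was 0.25 (SE 0.30, adjusted p = 0.758), and -0.06 without that array, the one whose striatal marker mean was 10.85. The part of striatal tissue in these values was not tested.

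The other PFC differences were small. Htr1a gave -0.10 (SE 0.09) and 0.12 (SE 0.08), Htr1b 0.05 (SE 0.18) and 0.13 (SE 0.07), and Htr4 -0.03 (SE 0.16) and 0.02 (SE 0.06). Of these, Htr1b 1422288_at had the smallest adjusted p, 0.441, with values from 7.92 to 8.26 (median 8.07) in modafinil arrays and from 7.71 to 8.18 (median 7.95) in vehicle arrays.

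Other genes of the pathway were read from lists of serotonin receptors, serotonin metabolism, serotonin neuron identity and receptor coupling. None of their tested members passed the threshold for modafinil in VTA, NAC, PFC or across the regions. In VTA the tested members numbered 3, 10, 6 and 23, with median differences of 0.07, -0.14, -0.52 and -0.02 against -0.05 over all probe sets tested. Closest to the threshold was Gnal (0.51, SE 0.10, adjusted p = 0.0515), the olfactory-type stimulatory G protein subunit. Next came Htr1f (0.70, SE 0.14, adjusted p = 0.0523), an inhibitory serotonin receptor, and Adcy1 (0.82, SE 0.17, adjusted p = 0.0558), an adenylyl cyclase.

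The lowest VTA values were those of Gch1 (-1.60, SE 0.44, adjusted p = 0.0918), which makes the cofactor of tryptophan and tyrosine hydroxylases, and Slc18a2 (-1.55, SE 0.51, adjusted p = 0.133), the vesicular monoamine transporter. Ddc, the decarboxylase shared by serotonin and dopamine synthesis, gave -1.22 (SE 0.41, adjusted p = 0.137), and En2, a midbrain transcription factor, gave -1.21 (SE 0.34, adjusted p = 0.0933). Slc18a2 and Foxa2 are also dopamine neuron markers. For the modafinil change in VTA minus PFC, 1 of 23 tested coupling genes was called, against 0.903 percent of all probe sets. It was Adarb1, an RNA-editing enzyme that acts on Htr2c transcripts (0.70, SE 0.17, adjusted p = 0.0336). For VTA minus NAC 0 of the 23 were called, against 0.274 percent of all.

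Between NAC and VTA many pathway genes were called, where 59 percent of all probe sets tested were. Of 9 tested metabolism genes 8 were lower in vehicle NAC than in vehicle VTA, among them Ddc (-2.81, SE 0.26, adjusted p = 2.13e-08) and Gch1 (-2.18, SE 0.29, adjusted p = 3.07e-06), and Aldh2 was higher (0.22, SE 0.08, adjusted p = 0.0264). Maoa and Maob, which break serotonin down, were lower by -0.39 (SE 0.06) and -0.35 (SE 0.09). Of 4 other receptors tested, Htr1d (1.85, SE 0.19, adjusted p = 1.14e-07) and Htr1f (1.38, SE 0.23, adjusted p = 3.16e-05) were higher in NAC and Htr5a was lower (-0.16, SE 0.06, adjusted p = 0.0329).

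Of 23 coupling genes 7 were higher and 8 lower in NAC, where 59 percent of all probe sets tested were called. Plcb1, a phospholipase downstream of Gq-coupled receptors (1.43, SE 0.09), and Adcy5, the striatal adenylyl cyclase (1.52, SE 0.15), were higher, and Plcb4 (-1.64, SE 0.13) and Adcy8 (-1.94, SE 0.19) were lower. The 2 tested identity genes, Nkx2-2 (-1.46, SE 0.12) and Gata2 (-0.34, SE 0.11), were lower in NAC. The median difference was -0.52 for metabolism, 0.80 for the other receptors and -0.03 for coupling, against 0.01 over all probe sets tested.

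The genes most like each member were found by Pearson correlation of quantile-normalized values over all 36 arrays, as a description. These arrays share region differences, so the values mostly follow region. For Htr7 they were Epb41l3 (r = 0.968), Slc17a6 (0.967), the vesicular glutamate transporter of thalamic and midbrain neurons, and Arhgap24 (0.965). For Htr1b they were Arpc1a (0.931), Carhsp1 (0.917) and Nfatc2 (0.916), and for Htr2c Klhl13 (0.931), Nts (0.931), the neurotensin gene, and Carhsp1 (0.926). For Htr1a they were Fkbp1b (0.921), Slitrk1 (0.918) and Napb (0.911), and for Htr4 Unc13c (0.909), Rhbdl3 (0.907) and Inpp5f (0.893). Slc6a4 came nearest to Brpf1 (0.853), and the dim Tph2 reached only 0.567 with Ppara.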

How the data were processed

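The deposited values were used as given: 36 arrays by 45101 probe sets, on the log2 scale, computed by the authors with RMA per the submitters' processing notes (version not given in the sources used here). Per the labels' protocols, RNA of 2 tissue pieces was pooled where its integrity number was above 7. Of the probe sets 64 were controls, 34945 had 1 symbol, 932 several and 9160 none. Symbols of 34741 were matched by Entrez identifier, and 18193 genes were covered.

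For each comparison limma 3.58.1 (lmFit, then eBayes; R 4.3.3) was run on 27022 probe sets at or above the 40th percentile of mean value, with Benjamini-Hochberg adjustment and a threshold of 0.05. Members below the filter were read from the fit without it, adjusted over all 45037. The members, gene lists and tests were chosen with earlier results of these data known. Genes named were all members, all list genes past the test or up to 2 per direction with the smallest p, each from its brightest probe set, and the 3 most correlated genes per member. Not every gene so chosen is printed. Marker lists covered dopamine, raphe, striatal, cortical and thalamic neurons, choroid plexus, oligodendrocytes and interneurons.

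In a simulation with about 200 seeded shifts, the test recovered 74 percent of those of size 0.5 for VTA, 76.8 percent for NAC and 91.9 percent for PFC. Its noise was independent between arrays, with 1 spread per probe set for all groups, and the shifts were placed in brighter probe sets. These rates need not hold for dim members or for members with a wide spread, such as Htr4 1443365_at in NAC (SE 0.57). Whether the same replicate number marks paired arrays is not known. After each group's mean was taken off, same-numbered arrays were correlated. Those of modafinil and vehicle exceeded 0.1 in 1 of 5 VTA pairs, 1 of 5 NAC pairs and 3 of 8 PFC pairs. Those of vehicle NAC and vehicle VTA ranged from 0.016 to 0.249, against a median of -0.0287 for other numbers. These values cannot tell whether arrays of different regions share mice, and the main fits took all arrays as independent. Alternatives were other filters, quantile normalization, trended robust variances, array weights, 1 probe set per gene, the replicate number as a block, other sets of arrays and leaving out each array. Raw intensities, scan dates and behaviour were not analysed here.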

Additional observations from a re-analysis of the deposited data

Results flagged for a closer look

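Among 72 groups of member values, 6 held an array far from the others by Dixon's criterion, and chance alone marks about 1 group in 20. Modafinil PFC array 3 accounted for 2 of them, Htr2c 1435513_at at 11.87 and Htr2c 1450477_at at 8.73. The same array was far from its group in the mean of striatal projection neuron markers (10.85) and of dopamine neuron markers (6.71). Vehicle PFC array 4 was low for Htr1a 1450219_at (5.98) and for the mean of cortical excitatory neuron markers (9.61). Htr1b 1442077_at was low in modafinil VTA array 1 (8.24), and Htr2c 1450477_at was low in vehicle NAC array 2 (7.50). Vehicle VTA array 2 was high for Slc6a4 (5.57) and low for the striatal marker mean (7.79). Modafinil NAC array 2 was low for the cortical marker mean (7.25), beside its low Htr1a value.

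The modafinil change of Htr7 1422235_at differed between regions by a test of the difference itself, by 0.71 between VTA and NAC and by 0.68 between VTA and PFC. In VTA every modafinil array lay above the vehicle mean, and in NAC every modafinil array lay below it, with a NAC difference of -0.0949.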

How the results depend on the processing

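Of 664 single-member modafinil values within a region recomputed under alternatives, 1 passed the threshold: Htr7 1422235_at in VTA with trended robust variances (adjusted p = 0.0471, range over its 15 alternatives 0.0471 to 0.127). The Htr7 1422235_at contrasts stayed called in all 24 alternatives for VTA minus NAC (0.58 to 0.77, adjusted p up to 0.0177) and in all 30 for VTA minus PFC (0.56 to 0.74, up to 0.0044). All of these fits had no filter, and apart from array weights they took 1 spread for all groups. With the replicate number as a block the adjusted p-values of the 1422235_at contrasts were 0.0175 and 0.00329. The other Htr7 probe set, 1435332_at, was called in 0 of 26 alternatives for VTA minus NAC and in 0 of 32 for VTA minus PFC. In the blocked fit the probe sets called went to 0 in VTA and 0 in PFC, and no call of a member probe set read from it changed. Calls of single list and marker genes were not read from the blocked fit. In simulation with independent noise 74 to 91.9 percent of shifts of 0.5 in brighter probe sets were recovered within a region. Smaller shifts, shifts of dim probe sets and variation shared between probe sets were not simulated.

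Counts of all probe sets called moved more. In VTA (70) they were 0 with no filter, 291 with the filter at the 60th percentile, 262 with quantile normalization, 241 with trended robust variances (members 1), 704 with array weights, 1 with 1 probe set per gene and 940 in a fit of all 36 arrays. In PFC (14) they were 4 at the 60th percentile, 0 with trended robust variances, 61 with array weights and 36 in the fit of all arrays. Across the regions (227) they were 140 at the 60th percentile and 556 with array weights. For NAC minus VTA (15953) they were 25572 with no filter (members 4) and 7545 with 1 probe set per gene, and members numbered 1 at the 60th percentile. For the change in VTA minus NAC (74) they were 166 with quantile normalization, 534 with array weights and 25 with 1 probe set per gene. For VTA minus PFC (244) they were 584 and 85 with the last 2 settings, and for NAC minus PFC 6 with array weights. Members called were 1 in each VTA contrast with no filter. The causes were not tested.

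Leaving out 1 array gave 0 to 172 calls in VTA, 0 to 1 in NAC, 0 to 62 in PFC, 145 to 389 across regions, 46 to 177 for VTA minus NAC and 116 to 295 for VTA minus PFC, and 1 to 3 members for NAC minus VTA. Uncalled differences that changed sign ranged in NAC from -0.0541 to 0.156 for Slc6a4, -0.196 to 0.00903 for Htr2c 1435513_at, -0.0921 to 0.448 for Htr1a 1438710_at and -0.338 to 0.0412 for Htr1b 1442077_at. In PFC they ranged from -0.0355 to 0.0298 for Slc6a4, -0.0637 to 0.0303 for Tph2, -0.00836 to 0.0559 for Htr4 1427654_a_at, -0.0551 to 0.154 for Htr1b 1442077_at, -0.128 to 0.0742 for Htr4 1443365_at, -0.0772 to 0.328 for Htr2c 1435513_at and -0.0625 to 0.341 for Htr2c 1450477_at. Htr4 1443365_at in NAC minus VTA ranged from -0.396 to 0.25. With quantile normalization Htr4 1427654_a_at was -0.0264 in PFC and -0.0729 in NAC minus VTA, and Slc6a4 was -0.0361 in PFC. With array weights PFC values were -0.0964 for Htr1b 1442077_at, 0.0242 for Htr4 1443365_at, -0.000748 for Slc6a4 and 0.00701 for Tph2, and Htr1b 1422288_at was 0.00958 in NAC minus VTA.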

Other observations

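Interneuron markers (8 genes) are a class of cells on which several serotonin receptors act, and the ranges of their mean overlapped between treatments in every region. It lay between 10.45 and 10.68 in modafinil PFC and between 10.41 and 10.72 in vehicle PFC, and between 8.68 and 8.96 in modafinil VTA and between 8.43 and 9.30 in vehicle VTA. In NAC it lay between 9.06 and 10.2 in modafinil arrays and between 9.34 and 10.24 in vehicle arrays. In no region did a tested interneuron marker pass the threshold for modafinil. Oligodendrocyte markers (9 genes, all tested) had higher values with modafinil for 9 of 9 genes in PFC and lower values for 9 of 9 in VTA, with median differences of 0.21 and -0.19 and 0 called in either. The highest oligodendrocyte mean in PFC was that of modafinil array 3 (10.6), and without it 7 of 9 genes had higher values and the median was 0.13, a setting chosen after the values were seen.

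The 2 probe sets of a gene correlated over 36 arrays with r = 0.973 for Htr2c, 0.901 for Htr7, 0.754 for Htr1a, 0.176 for Htr1b and -0.629 for Htr4. Each pair reads the same labelled RNA of the same arrays.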
